A study of Mus musculus with 9 samples.

Results

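Complement is a cascade of proteins that tags surfaces for removal and calls in phagocytes. It was examined here through 9 named genes out of the 18571 listed in the deposited expression table: the C1q chains C1qa, C1qb and C1qc, the opsonins C3 and C4b, properdin (Cfp), and the receptors C3ar1, C5ar1 and Vsig4. The genes were chosen by symbol, and each matched 1 row. In the classical route, C1q binds a target and starts the cleavage of C4, C2 and then C3. Properdin stabilises the convertase of the alternative route, which amplifies C3 cleavage. C3 fragments coat the target and are read by receptors such as the integrin CR3 and Vsig4, while the small peptides C3a and C5a act through C3ar1 and C5ar1. In the brain, microglia are the main source of C1q, and C1q and C3 are known for marking synapses for removal by microglia.

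RNA was measured in cells isolated from the cortex and hippocampus of mice that were 9 months old, with 3 libraries in each of 3 genotypes. The wild-type (WT) mice were C57BL/6J. The APP/PS1 mice carry amyloid transgenes, and APP/PS1:Cx3cr1-CreER:Cx43-flox/flox, written as Cx43 knockout in the text and Cx43 cKO in the plots, adds a tamoxifen-dependent recombinase driven from Cx3cr1 and floxed alleles of Cx43, the gap junction protein encoded by Gja1. Both were on the same background. Per the labels, all 3 genotypes received tamoxifen by gavage at 8 months, at 0.1 mg/g on 5 days in a row, and only the Cx43 knockout mice carried the CreER and floxed alleles. The amyloid model was set against WT, the knockout against the amyloid model, and the knockout against WT. Each pair of these contrasts shares a group, so their values are given side by side and not as independent evidence. The recombinase acts only where Cx3cr1 is expressed, and an effect of the CreER insertion itself cannot be told apart from that of the deletion. Cells were captured on plates coated for CD45, which is carried by all leukocytes and not by microglia alone. The labels do not say whether the libraries of a genotype came from separate mice, so the p-values measure only the spread between these libraries, which may be technical.

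The libraries held 18907681 to 19565354 estimated counts, and no pair agreed within sampling noise. Gja1 was at 33.6, 39.7 and 26.9 CPM (counts scaled to library size by edgeR's TMM factors, group means for WT, APP/PS1 and Cx43 knockout), with a log2 change of -0.56 in Cx43 knockout against APP/PS1 (adjusted p = 7.95e-09, edgeR). Gja1 is also an astrocyte gene, and the summed level of 10 astrocyte markers was 495, 709 and 543 CPM in the same order, and the part of astrocytes in this change was not tested. Cx3cr1 stood at 2259.8, 2231 and 1214 CPM. The Y-linked Ddx3y stood at 208 CPM for WT, 237 for APP/PS1 and 0.0522 in Cx43 knockout. Sex as read from this gene therefore coincides with the Cx43 knockout group and cannot be told apart from the genotype, which touches every contrast with that group, including those of the X-linked Cfp and Vsig4. Microglial markers were all detected, and their summed level over 12 genes was 18827, 24102 and 21479.7 CPM in the same order. The 11 neutrophil markers summed to 2970.4, 918 and 8648 CPM, and the 6 monocyte markers to 387, 98.3 and 707 CPM. No marker of these lists was at 0 throughout a group. These are bulk samples, so fewer cells of a type and less RNA per cell cannot be told apart.

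The genes spanned more than 3 orders of magnitude. On the TPM scale, which corrects for transcript length, the C1q chains were among the most abundant messages of these cells. Their mean TPM in WT was 6563 for C1qb, 5849 for C1qa and 5088 for C1qc, which placed them at ranks 7, 10 and 13 of the table. The receptors C5ar1 (462 TPM) and C3ar1 (369 TPM) followed, then C4b (97.4 TPM), C3 (34.4 TPM), Cfp (31.7 TPM) and Vsig4 (1.62 TPM). In WT the levels of C3 and Cfp were neighbours, with a difference of the order of their spread (SD 1.93 and 0.487 TPM, n = 3 each). The order changed with genotype for C3 alone: it stood below C4b in WT and in APP/PS1 (10.6 against 37.8 TPM) but above it in Cx43 knockout (75.4 against 65.2 TPM).

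Between APP/PS1 and WT, all 9 genes passed the threshold, an adjusted p of 0.05 in edgeR's quasi-likelihood test. The share of all 14696 tested genes that passed it was 59.0%, so a call by itself carries little in these libraries and the sizes are given for each gene. The 3 C1q genes were higher (26.9% of all genes were called higher) and the other 6 lower (32.0% were called lower). The 9 genes also had no overlap between the groups' libraries, as did 63.5% of all genes. Between Cx43 knockout and APP/PS1, 7 of 9 were called (55.0% of all genes), 4 higher (27.3%) and 3 lower (27.7%), and the same number did not overlap (59.7%). Between Cx43 knockout and WT, 8 of 9 were called (47.7%), 4 higher (24.7%) and 4 lower (23.0%), and 8 did not overlap (54.6%). The split of all calls into higher and lower moved with the scaling: the share that was higher was 45.7%, 49.6% and 51.9% in the 3 contrasts with TMM, 29.5%, 54.8% and 30.4% with library totals, and 14.7%, 75.3% and 19.8% on TPM.

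**Figure D1:**
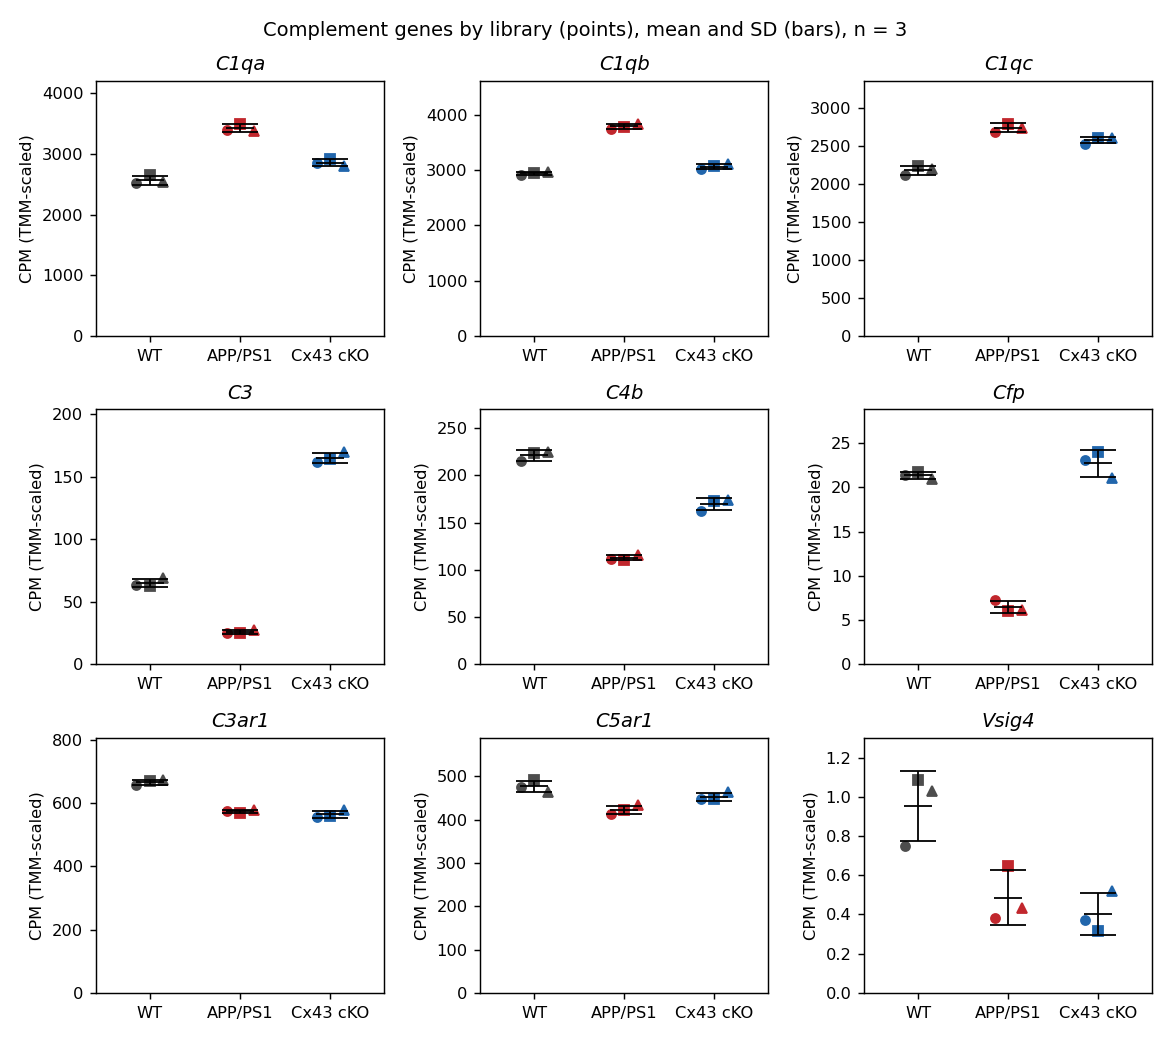
Level of each of the 9 complement genes in every library, in TMM-scaled CPM on axes that start at 0, by genotype, with a point for each library and bars for the mean and SD of 3. C3 and Cfp are lowest in APP/PS1, at 25.8 and 6.48 CPM, and the C1q chains are highest there.

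The C1q chains form the recognition molecule of the classical route, and their genes lie side by side within chr4:136880126-136898844 of GRCm38.p6, in the order C1qb, C1qc, C1qa. On the TMM scale C1qa was at 2514, 2648 and 2533 CPM for WT, at 3392, 3499 and 3372 CPM for APP/PS1 and at 2852, 2913 and 2797 CPM in Cx43 knockout. The amyloid libraries were the highest, the WT libraries the lowest, and no groups overlapped. C1qb was at 2907, 2950.4 and 2961 CPM for WT, at 3738, 3787 and 3843 CPM for APP/PS1 and at 3012, 3071 and 3104 CPM in Cx43 knockout. The order of the groups was that of C1qa, with the Cx43 knockout libraries closer to WT. C1qc was at 2114, 2235 and 2189.7 CPM for WT, at 2685, 2794 and 2741 CPM for APP/PS1 and at 2527, 2606 and 2597 CPM in Cx43 knockout, here closer to APP/PS1.

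On this scale the log2 change between APP/PS1 and WT was 0.42 for C1qa (SE 0.03, adjusted p = 3.41e-13, edgeR), 0.37 for C1qb (adjusted p = 6.28e-13) and 0.33 for C1qc (adjusted p = 3.61e-11). In Cx43 knockout against APP/PS1 it was -0.26 for C1qa (adjusted p = 4.18e-09, edgeR), -0.31 for C1qb (adjusted p = 2.90e-11) and -0.09 for C1qc (adjusted p = 0.00623). In Cx43 knockout against WT it was 0.15 for C1qa (adjusted p = 2.74e-05, edgeR), 0.06 for C1qb (adjusted p = 0.0468) and 0.24 for C1qc (adjusted p = 2.23e-08). This C1qb call was lost without most single libraries, and the C1qc call in Cx43 knockout against APP/PS1 was lost with library totals. The sum of the 3 chains was 7684 ± 149 CPM for WT, 9950.3 ± 133 for APP/PS1 and 8493 ± 99.0 in Cx43 knockout (SD, n = 3 each). That sum lay 29.5% above WT in APP/PS1 and changed by -14.6% from APP/PS1 to Cx43 knockout, each with an exact permutation p of 0.1, the smallest that 3 against 3 libraries can give.

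The direction of these C1q differences depended on the scale. On TPM the summed level was 17499.8 for WT, 17262 for APP/PS1 and 16884 in Cx43 knockout, a difference of -1.36% between APP/PS1 and WT (exact permutation p = 0.4, two-sided, n = 3 each). The median change of all genes between APP/PS1 and WT was -0.04 with TMM, -0.17 with library totals and -0.35 on log2(TPM + 1). On that last scale it was 0.14 for Cx43 knockout against APP/PS1 and -0.17 against WT. Relative to the median between APP/PS1 and WT, C1qa was 0.45, 0.45 and 0.37 higher on the 3 scales, and C1qb and C1qc were also above it on each. A correction for transcript length in each library turned the sign. The C1q transcripts, at 1009 to 1055 nucleotides, fall in the shortest of 10 length bins (157 to 1201 nucleotides, 1533 genes), whose median log2 change was 0.59 between APP/PS1 and WT, -0.50 between Cx43 knockout and APP/PS1 and 0.17 between Cx43 knockout and WT. With offsets that centre each bin, C1qa changed by -0.27, C1qb by -0.31 and C1qc by -0.35 between APP/PS1 and WT, and by 0.26, 0.21 and 0.43 between Cx43 knockout and APP/PS1. The C1q genes thus lay below the median of short transcripts in APP/PS1 against WT and above it in Cx43 knockout against APP/PS1. Whether the trend with length arose in the cells or in the libraries was not tested.

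**Figure D2:**
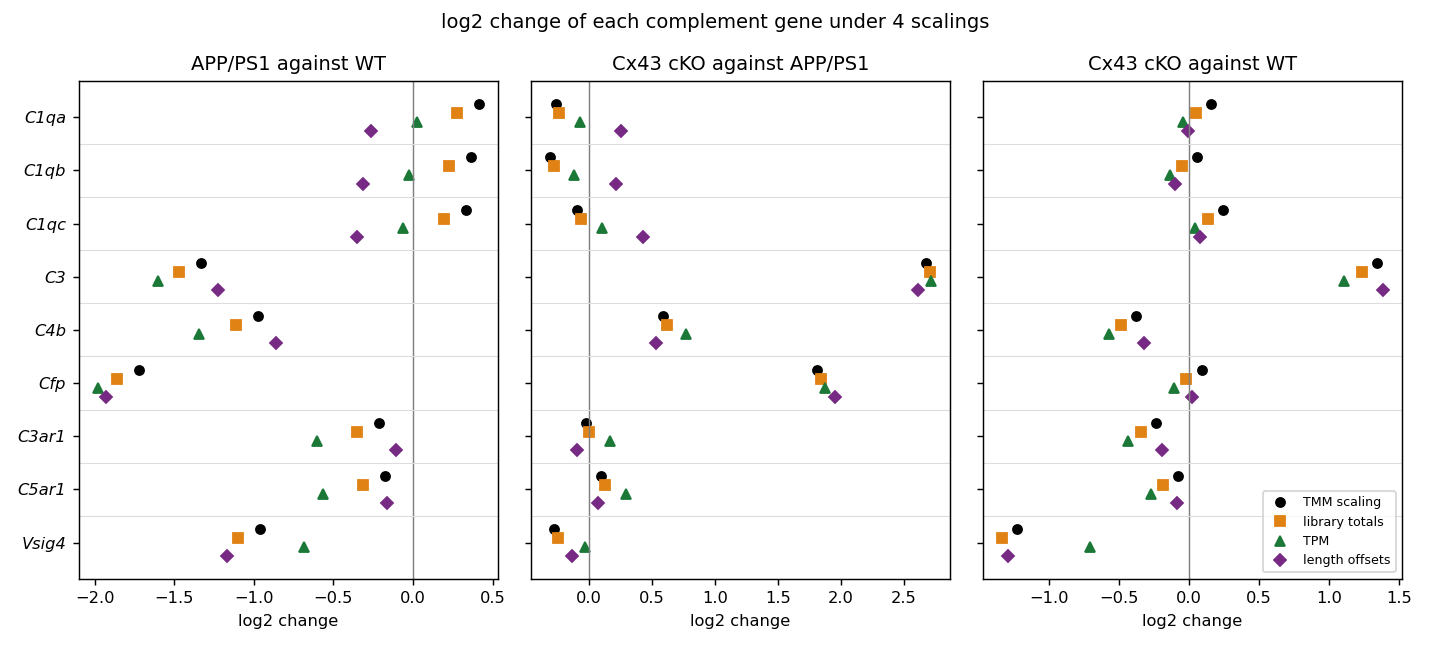
Log2 change of each of the 9 genes in the 3 contrasts under TMM scaling, library totals, log2(TPM + 1) and offsets by transcript length. C3, C4b and Cfp keep their side of 0 in APP/PS1 against WT and in Cx43 knockout against APP/PS1 under each scaling drawn, while the C1q chains change sign with the length offsets.

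Set against the 12 microglial markers, summed C1q was 0.408 ± 0.0119 of their summed CPM for WT, 0.413 ± 0.00758 for APP/PS1 and 0.395 ± 0.00681 in Cx43 knockout (SD, n = 3 each). The difference between APP/PS1 and WT was 1.15% (exact permutation p = 0.5). It was -11.9% when both sums were taken in TPM (exact permutation p = 0.1), so the direction of this ratio too depended on the scale. The 12 markers did not all move the same way. In APP/PS1 against WT, 8 were called higher, 3 lower and 1 was not called, with a median log2 change of 0.57. In Cx43 knockout against APP/PS1, 2 were called higher, 7 lower and 3 were not called (median -0.20). Their sum is weighted to the most abundant of them. C1q made up 1.75%, 1.73% and 1.69% of all TPM in WT, APP/PS1 and Cx43 knockout.

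The 3 chains have nearly equal transcript lengths, so their proportions within a library are less affected by that correction. C1q protein holds equal numbers of A, B and C chains. C1qc made up 29.1% ± 0.267 of the summed C1q TPM in WT, 28.2% ± 0.177 of it for APP/PS1 and 31.1% ± 0.227 in Cx43 knockout (SD, n = 3 each). The groups did not overlap: the WT libraries lay between 28.8% and 29.2%, the APP/PS1 libraries between 28.1% and 28.4% and the Cx43 knockout libraries between 30.9% and 31.3%. The share in Cx43 knockout was 2.85 percentage points above APP/PS1 and 2.01 above WT, each with an exact permutation p of 0.1, the smallest this design allows. C1qb showed the opposite in Cx43 knockout, at 37.5% ± 0.512 in WT, 37.3% ± 0.509 for APP/PS1 and 35.3% ± 0.405 in Cx43 knockout. C1qa was at 33.4%, 34.4% and 33.6% in the same order (exact permutation p = 0.1 between APP/PS1 and WT and 0.7 between Cx43 knockout and WT).

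**Figure D3:**
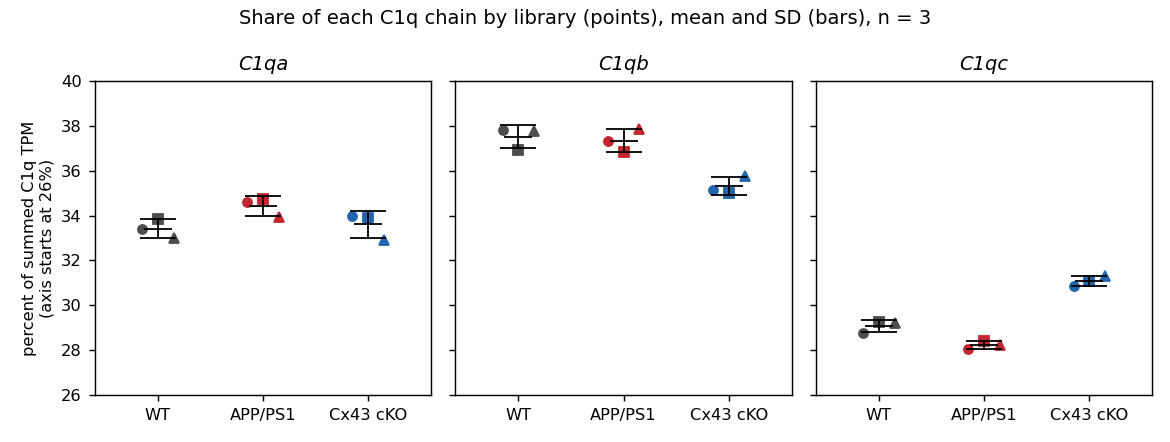
Share of each C1q chain in the summed C1q TPM of each library, in percent on an axis that starts at 26%, with a point for each library and bars for the mean and SD of 3. The 3 Cx43 knockout libraries have the highest C1qc shares, 30.9% to 31.3%, and the lowest C1qb shares.

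Promoter sequence, from 250 bases before to 50 after the annotated start, was read from RefSeq on GRCm38.p6 for 7 of the 9 genes. The C1q neighbours C1qb and C1qc are shown because they moved together between APP/PS1 and WT but apart in Cx43 knockout. C1qb is chr4:136886151-136886450 and C1qc is chr4:136892865-136893164, both on the minus strand and printed 5′ to 3′ along the gene. Capitals mark the core GAGGAA bound by PU.1, the factor that defines the myeloid lineage, or its reverse complement TTCCTC.
C1qb: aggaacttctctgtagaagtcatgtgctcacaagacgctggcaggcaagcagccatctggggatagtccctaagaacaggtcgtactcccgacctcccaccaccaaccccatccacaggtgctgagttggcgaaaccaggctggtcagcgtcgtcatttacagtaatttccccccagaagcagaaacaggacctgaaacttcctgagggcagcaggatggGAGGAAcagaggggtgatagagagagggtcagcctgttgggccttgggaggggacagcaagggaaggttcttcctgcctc
C1qc: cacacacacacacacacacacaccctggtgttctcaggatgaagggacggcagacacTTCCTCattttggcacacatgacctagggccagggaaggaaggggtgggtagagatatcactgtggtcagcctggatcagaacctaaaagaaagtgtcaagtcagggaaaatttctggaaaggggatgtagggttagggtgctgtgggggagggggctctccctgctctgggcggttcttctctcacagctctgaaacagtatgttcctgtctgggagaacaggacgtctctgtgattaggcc
The match lies at position -30 from the start in C1qb and at -193 in C1qc. The core was found on either strand in 28.3% of all 32851 promoters of this length, so a match is a description and not evidence of binding.

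C3 is the protein on which all complement routes converge, and of the 9 genes it had the highest log2 change in Cx43 knockout against APP/PS1. The gene spans chr17:57203967-57228136. It was at 63.8, 62.4 and 69.1 CPM for WT, at 24.9, 25.2 and 27.3 CPM for APP/PS1 and at 162, 164 and 169.6 CPM in Cx43 knockout. The 3 groups were far apart, with APP/PS1 lowest and Cx43 knockout highest. C3 was 2.52-fold lower in APP/PS1 than in WT (log2 -1.33, SE 0.05, adjusted p = 5.30e-18, edgeR), 6.39-fold higher in Cx43 knockout than in APP/PS1 (log2 2.68, SE 0.05, adjusted p = 1.91e-25) and 2.54-fold higher in Cx43 knockout than in WT (log2 1.34, SE 0.04, adjusted p = 5.59e-20). Over all alternatives the log2 change ran from -1.68 to -1.22, from 2.47 to 2.81 and from 1.11 to 1.39.

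Cfp encodes properdin, the positive regulator of the alternative route, which neutrophils and monocytes are known to store and release, from a gene at chrX:20925454-20931555. Its levels were 21.4, 21.7 and 21.0 CPM for WT, 7.26, 6.03 and 6.14 CPM for APP/PS1 and 23.2, 24.0 and 21.1 CPM in Cx43 knockout. The APP/PS1 libraries were the lowest, and the other groups overlapped. Cfp was 3.30-fold lower in APP/PS1 than in WT (log2 -1.72, SE 0.08, adjusted p = 8.09e-16, edgeR) and 3.51-fold higher in Cx43 knockout than in APP/PS1 (log2 1.81, SE 0.08, adjusted p = 3.15e-16). Against WT the Cx43 knockout did not pass the test (log2 0.09, SE 0.07, adjusted p = 0.275), and the sign there changed with the scaling.

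Neutrophil and monocyte markers moved with both genes in the contrasts that include APP/PS1. Between Cx43 knockout and WT the neutrophil sum was 2.91-fold higher, with 9 of the 11 markers called higher and 2 lower, while Cfp was not called. The 11 neutrophil markers were all lower in APP/PS1 than in WT and all higher in Cx43 knockout than in APP/PS1, with summed levels of 2961 to 2978 CPM in WT, 909 to 925 CPM in APP/PS1 and 8582 to 8729 CPM in Cx43 knockout, a 3.23-fold lower and then a 9.42-fold higher sum. The 6 monocyte markers did likewise, from 382 to 395 CPM in WT, 90.9 to 104 CPM in APP/PS1 and 697 to 718 CPM in Cx43 knockout. For each 1000 CPM of neutrophil markers, C3 stood at 21.9 ± 1.16 CPM for WT, 28.1 ± 1.30 for APP/PS1 and 19.1 ± 0.544 in Cx43 knockout (SD, n = 3 each). Against the monocyte sum, C3 was at 168, 263 and 233 CPM for each 1000. Per unit of either of these sums, C3 was lower in Cx43 knockout than in APP/PS1, the opposite of its CPM, while per 1000 CPM of microglial markers it was higher, at 7.68 against 1.07, and likewise per border macrophage and astrocyte markers. Cfp per 1000 CPM of neutrophil markers was 7.19 ± 0.134 for WT, 7.05 ± 0.719 for APP/PS1 and 2.63 ± 0.180 in Cx43 knockout, a similar value in WT and APP/PS1 and a lower one in Cx43 knockout. Against the monocyte sum, Cfp was at 55.3 ± 1.85, 66.0 ± 6.75 and 32.2 ± 2.61 CPM for each 1000, the lowest value again in Cx43 knockout. Per 1000 CPM of microglial markers, Cfp was higher in Cx43 knockout than in APP/PS1, at 1.06 against 0.269. The same held per border macrophage markers (59.2 against 15.0) and per astrocyte markers (41.9 against 9.14). The part of these cells in the changes of C3 and Cfp was not tested.

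**Figure D4:**
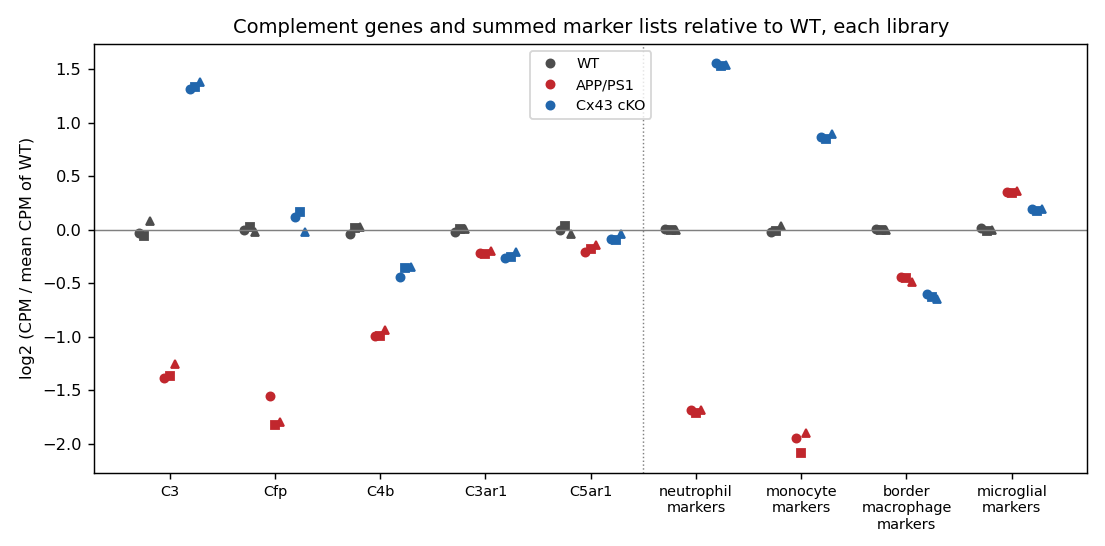
Level of C3, Cfp, C4b, C3ar1 and C5ar1 and summed level of the neutrophil, monocyte, border macrophage and microglial markers in each library, as log2 of the CPM over the mean CPM of WT, coloured by genotype. C3 and the neutrophil and monocyte sums share 1 order of groups, lowest with APP/PS1 and highest with Cx43 knockout, while Cfp returns to the WT level.

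The genes with the pattern most like that of C3 over the 9 libraries, by the root mean square difference of centred log2 CPM among 9163 genes of at least 10 CPM, were Retnlg (0.0731), Steap4 and Adpgk. Retnlg, known from neutrophils, stood at 116, 45.8 and 290.5 CPM in WT, APP/PS1 and Cx43 knockout. For Cfp they were Gsr (0.128), Slc28a2 and Gm43305. Cfp itself was 128th nearest to C3. For C1qc the list was Zkscan3, Siglech and Nubp2. Siglech, a microglial lectin, stood at 839, 1069 and 993 CPM. For C1qa it was Slc25a5, Tomm22 and Dnase2a, and for C1qb Vps35, Ywhaq and Pcna. C1qb was 34th and C1qc 179th nearest to C1qa. The remaining lists were Arhgap4, Mlst8 and Nnt for C4b, Fech, Il10ra and Hs6st1 for C3ar1, Adamts1 and Dcaf5 for C5ar1, and Tgfb3, Rarg and Slc6a20a for Vsig4.

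The promoters of C3 and Cfp are shown because both genes fell in APP/PS1 and rose in Cx43 knockout. C3 is chr17:57228087-57228386 and Cfp chrX:20931506-20931805, both on the minus strand of GRCm38.p6 in RefSeq and printed along the gene. In C3 the capitals mark a match to TTGCNNAA, a core bound by C/EBP factors, and in Cfp they mark TTCCTC.
C3: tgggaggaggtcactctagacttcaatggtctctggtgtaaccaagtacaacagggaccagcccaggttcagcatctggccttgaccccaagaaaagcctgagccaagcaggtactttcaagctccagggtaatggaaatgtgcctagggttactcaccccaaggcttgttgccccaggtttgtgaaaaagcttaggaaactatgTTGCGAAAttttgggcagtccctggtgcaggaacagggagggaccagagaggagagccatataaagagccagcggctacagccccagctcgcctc
Cfp: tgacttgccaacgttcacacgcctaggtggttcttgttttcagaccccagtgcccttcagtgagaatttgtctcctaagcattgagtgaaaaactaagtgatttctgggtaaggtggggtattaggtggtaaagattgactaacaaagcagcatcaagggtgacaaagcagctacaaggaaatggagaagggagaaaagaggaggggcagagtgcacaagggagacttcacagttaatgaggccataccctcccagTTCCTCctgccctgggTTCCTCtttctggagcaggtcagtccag
The C/EBP core of C3 lies at position -45, and TTGCNNAA or its reverse complement TTNNGCAA was found in 10.8% of all promoters. The matches of Cfp lie at 7 and 23 after the start. Vsig4 held GAGGAA at -155 and -53. C5ar1 held TTCNNTTTC, the reverse complement of the core GAAANNGAA of interferon regulatory factors, at -66 (8.56% of all promoters hold either form). TATAAA or TTTATA (13.6% of promoters) was found at 15 after the start in C3 and at -235 in C3ar1. None of these matches overlapped another, and C1qa and C4b had no entry.

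C4b (chr17:34728139-34743902) supplies C4, whose cleavage follows C1q binding. It was at 215, 224 and 225 CPM for WT, at 111, 111 and 116 CPM for APP/PS1 and at 163, 173 and 174 CPM in Cx43 knockout. The groups did not overlap, and the Cx43 knockout libraries lay between the others. C4b was 1.96-fold lower in APP/PS1 than in WT (log2 -0.97, SE 0.04, adjusted p = 1.27e-18, edgeR), higher in Cx43 knockout than in APP/PS1 (log2 0.59, SE 0.04, adjusted p = 1.06e-13) and still below WT (log2 -0.38, SE 0.03, adjusted p = 3.93e-10). Unlike C3, it did not exceed WT in Cx43 knockout. C4a, a near-identical neighbour on chromosome 17 that could share reads with it, held at most 19.38 counts in a library, and adding its counts to those of C4b changed none of the 3 calls. Astrocytes are also known to make C4. Their 10 markers summed to 491 to 497 CPM in WT, 700.0 to 719 in APP/PS1 and 536 to 547 in Cx43 knockout, the reverse of the order of C4b, and their part in its level was not tested.

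C3ar1 (chr6:122847140-122856157) and C5ar1 (chr7:16246743-16259540) encode the receptors of the C3a and C5a peptides. C3ar1 was at 657, 670.5 and 672 CPM for WT, at 574, 569 and 579 CPM for APP/PS1 and at 556, 560.4 and 578 CPM in Cx43 knockout. It was lower in both amyloid genotypes than in WT (log2 -0.22 with adjusted p = 1.21e-07 in APP/PS1 and -0.24 with adjusted p = 3.15e-08 in Cx43 knockout, edgeR), and its groups overlapped between Cx43 knockout and APP/PS1 (log2 -0.02, adjusted p = 0.482), where the sign changed with the scaling. C5ar1 was at 476, 490.4 and 465 CPM for WT, at 414, 422 and 433 CPM for APP/PS1 and at 448, 446 and 463 CPM in Cx43 knockout. It was lowest in APP/PS1 (log2 -0.17, adjusted p = 1.33e-05, edgeR), and the higher level in Cx43 knockout was small (log2 0.10, adjusted p = 0.00652). The difference between Cx43 knockout and WT was smaller still (log2 -0.08, adjusted p = 0.0350) and was lost with DESeq2's size factors (adjusted p = 0.153, edgeR) and when WT replicate 1 or 2 or knockout replicate 1 or 2 was left out (0.0613 to 0.182). On TPM the changes of both receptors between APP/PS1 and WT were larger, with a log2 of -0.61 for C3ar1 and -0.57 for C5ar1 beside a median of -0.35 for all genes. For C5ar1 it was 0.29 in Cx43 knockout against APP/PS1 and -0.27 against WT, beside medians of 0.14 and -0.17. Other alternatives gave smaller changes between APP/PS1 and WT. The log2 change over all of them ran from -0.61 to -0.10 for C3ar1 and from -0.57 to -0.14 for C5ar1. C3ar1, at 4250 nucleotides, fell in a length bin with a median log2 change of -0.12 in that contrast. A list of 12 dissociation response genes had the group order of C5ar1 and C4b, with sums of 24954 to 26411 CPM for WT, 20214 to 21374 for APP/PS1 and 21114 to 22262 in Cx43 knockout. All 12 were lower in APP/PS1 than in WT, and the last 2 ranges overlapped. Its part in these levels was not tested.

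Vsig4 (chrX:96247201-96293438), a receptor for C3b and iC3b on resident macrophages of other tissues, was near the detection limit. Its libraries held 15, 22 and 21 counts for WT, 7.04, 12 and 8 for APP/PS1 and 7, 6.36 and 10 in Cx43 knockout. It was lower in APP/PS1 (log2 -0.96, SE 0.33, adjusted p = 0.0146, edgeR) and in Cx43 knockout (log2 -1.23, SE 0.34, adjusted p = 0.00399) than in WT, and Cx43 knockout and APP/PS1 overlapped (log2 -0.27, SE 0.40, adjusted p = 0.589). The call in APP/PS1 was lost with DESeq2 (adjusted p = 0.142) and without WT replicate 2 (0.0638), APP/PS1 replicate 1 (0.0676) or APP/PS1 replicate 3 (0.0541). The 8 border macrophage markers summed to 591 to 595 CPM in WT, 422 to 437 in APP/PS1 and 378 to 390.5 in Cx43 knockout. Of them 5 were lower and 2 higher in APP/PS1 than in WT, and 8 were lower in Cx43 knockout than in WT. Their part in the level of Vsig4 was not tested.

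Of 50 further complement genes in the pathway lists, 47 were in the table and 33 had enough counts to be tested. In APP/PS1 against WT, 9 were higher, 13 lower and 11 not called, with a median log2 change of 0.03 beside -0.04 for all genes. The 22 called genes of 33 stand beside the 59.0% of all genes called in that contrast (26.9% higher and 32.0% lower). In Cx43 knockout against APP/PS1, 9 were higher, 12 lower and 12 not called (median -0.08 beside -0.01), and in Cx43 knockout against WT 10 were higher, 14 lower and 9 not called (median -0.11 beside -0.01). In that last contrast Csmd2 lost its call without WT or knockout replicate 2 or 3, and C4a without WT or knockout replicate 3 (adjusted p = 0.0527 to 0.0991 over both genes, edgeR). The shares of all genes called in these contrasts were 55.0% and 47.7%, and the counts by role below are to be read against the same shares. With library totals the split was 6 higher and 16 lower in the first contrast, and on TPM it was 5 and 22, so the direction of small changes depended on the scaling.

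Of the 8 receptors, 3 were higher, 3 lower and 2 not called in APP/PS1 against WT, and 5 were higher and 3 lower in Cx43 knockout against APP/PS1. One of those 5, Cr2, lost its call in 6 of the fits that left out 1 library (adjusted p = 0.0501 to 0.476, edgeR), the highest without knockout replicate 2. Itgax is the alpha chain of CR4 and a marker of plaque-associated microglia. It was at 42.7 ± 2.04 CPM for WT, 363 ± 16.5 for APP/PS1 and 316 ± 11.8 in Cx43 knockout (SD, n = 3 each), 8.51-fold higher in APP/PS1 than in WT (adjusted p = 4.08e-27, edgeR). In Cx43 knockout it stayed 7.41-fold above WT, with a log2 change of -0.20 from APP/PS1 (adjusted p = 3.34e-05). On TPM the libraries of the amyloid genotypes overlapped for Itgax, at 167 ± 6.34 for APP/PS1 and 165 ± 5.38 in Cx43 knockout. Itgam, the alpha chain of CR3, which binds C3 fragments, had the order of C3 instead, at 1645, 1366 and 2012 CPM (log2 0.56 between Cx43 knockout and APP/PS1, adjusted p = 1.54e-16, edgeR). Its partner Itgb2 was at 414, 422 and 628 CPM and rose in Cx43 knockout against APP/PS1 (log2 0.57, adjusted p = 2.43e-14, edgeR), while its change between APP/PS1 and WT was not called (log2 0.03). Neutrophils and monocytes also carry CR3, and their part in these values was not tested. Cd93 fell in APP/PS1 (log2 -0.77) and rose in Cx43 knockout (log2 0.69). C5ar2 was lower in Cx43 knockout than in both other groups (log2 -0.36 and -0.28). Calr rose in all 3 contrasts with TMM scaling (log2 0.18, 0.08 and 0.26), with a sign between APP/PS1 and WT that depended on the scaling, as did that of Lrp1 (0.07), whose call was lost without WT replicate 1 or APP/PS1 replicate 2 or 3 (adjusted p = 0.0922 to 0.174, edgeR). The B cell receptor Cr2 was at 24.95, 25.83 and 31.99 counts for WT, 0.76, 2.13 and 1.01 for APP/PS1 and 3, 9.98 and 2.21 in Cx43 knockout. The 5 B cell markers, none at 0 throughout a group, summed to 30.3 to 32.7 CPM for WT, 10.1 to 11.6 for APP/PS1 and 19.1 to 20.1 in Cx43 knockout, the same order of groups. Their part in the level of Cr2 was not tested.

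Of 8 tested initiators of the classical and lectin routes, 2 were higher and 4 lower in APP/PS1 against WT, and 2 were higher and 3 lower in Cx43 knockout against APP/PS1. Masp1, a protease of the lectin route, rose from 9.65 CPM in WT to 24.3 in APP/PS1 (log2 1.33, adjusted p = 4.67e-15, edgeR) and 31.2 in Cx43 knockout. Fcnb, a lectin of neutrophils, was 11.5-fold lower in APP/PS1 than in WT and 20.9-fold higher in Cx43 knockout than in APP/PS1, at 11.5, 0.991 and 20.8 CPM. Colec12 rose in APP/PS1 (log2 0.58) and fell in Cx43 knockout against it (log2 -1.08). C1s1, the protease partner of C1q, fell in both steps (log2 -0.95 from WT to APP/PS1 and -0.96 from APP/PS1 to Cx43 knockout), as did Fcna (-0.48 and -0.80). Cfb, which forms the convertase that properdin stabilises, was called lower in APP/PS1 (log2 -1.33, adjusted p = 0.0315, edgeR), a call lost when any 1 of the 6 libraries of the amyloid genotypes was left out. Its WT counts ran from 95 to 239, and without WT replicate 3, the highest, the log2 change was -0.80 (adjusted p = 9.18e-05, edgeR). The adjusted p without each of the amyloid libraries ran from 0.0512 to 0.0936. Its change between Cx43 knockout and APP/PS1 was not called (log2 1.13, adjusted p = 0.0638, edgeR), though the groups did not overlap, at 47 to 59 and 111 to 127 counts. It was called without WT replicate 1 (adjusted p = 0.0386) or WT replicate 3 (1.33e-07), since all libraries share 1 estimate of the spread. Of the terminal pathway only C8g could be tested, and it was not called in any contrast.

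Of 15 tested regulators, 4 were higher and 5 lower in APP/PS1 against WT, and 2 were higher and 6 lower in Cx43 knockout against APP/PS1. One of the 4, Csmd2, held 13.7 to 27.8 counts and lost its call without any 1 WT library or APP/PS1 replicate 3 (adjusted p = 0.0511 to 0.163, edgeR). Clu rose in APP/PS1 (log2 0.68, adjusted p = 2.76e-14, edgeR) and fell from there to Cx43 knockout (log2 -0.43), at 78.4, 126 and 93.4 CPM, as did the membrane inhibitor Cr1l (0.67 and -0.60). Astrocytes and the choroid plexus are known to express Clu. The astrocyte sums given above had its order of groups, and so did the 5 choroid plexus and ependymal markers, at 419 to 439 CPM for WT, 1131 to 1157 for APP/PS1 and 574 to 596 in Cx43 knockout. None of these 5 markers was at 0 throughout a group. Their part in the level of Clu was not tested. Cd55 did the reverse (log2 -0.88 and 0.77). Serping1, the C1 inhibitor, fell in APP/PS1 (log2 -0.97) and was not called in Cx43 knockout against it (log2 -0.08, adjusted p = 0.557, edgeR). Vtn fell in both steps with TMM scaling (log2 -0.33 and -0.21). On TPM the libraries of its second step overlapped, at 119.7 ± 5.10 for APP/PS1 and 118.4 ± 2.27 in Cx43 knockout. The neuronal Sez6l2 also fell in both steps (log2 -0.21 and -0.15). Its second change had a sign that depended on the scaling and a call lost without APP/PS1 replicate 3. Csmd3, another protein with complement control domains, was called higher in Cx43 knockout against APP/PS1 (log2 0.22), and Sez6 was called lower (log2 -0.75, adjusted p = 0.000901).

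**Figure D5:**
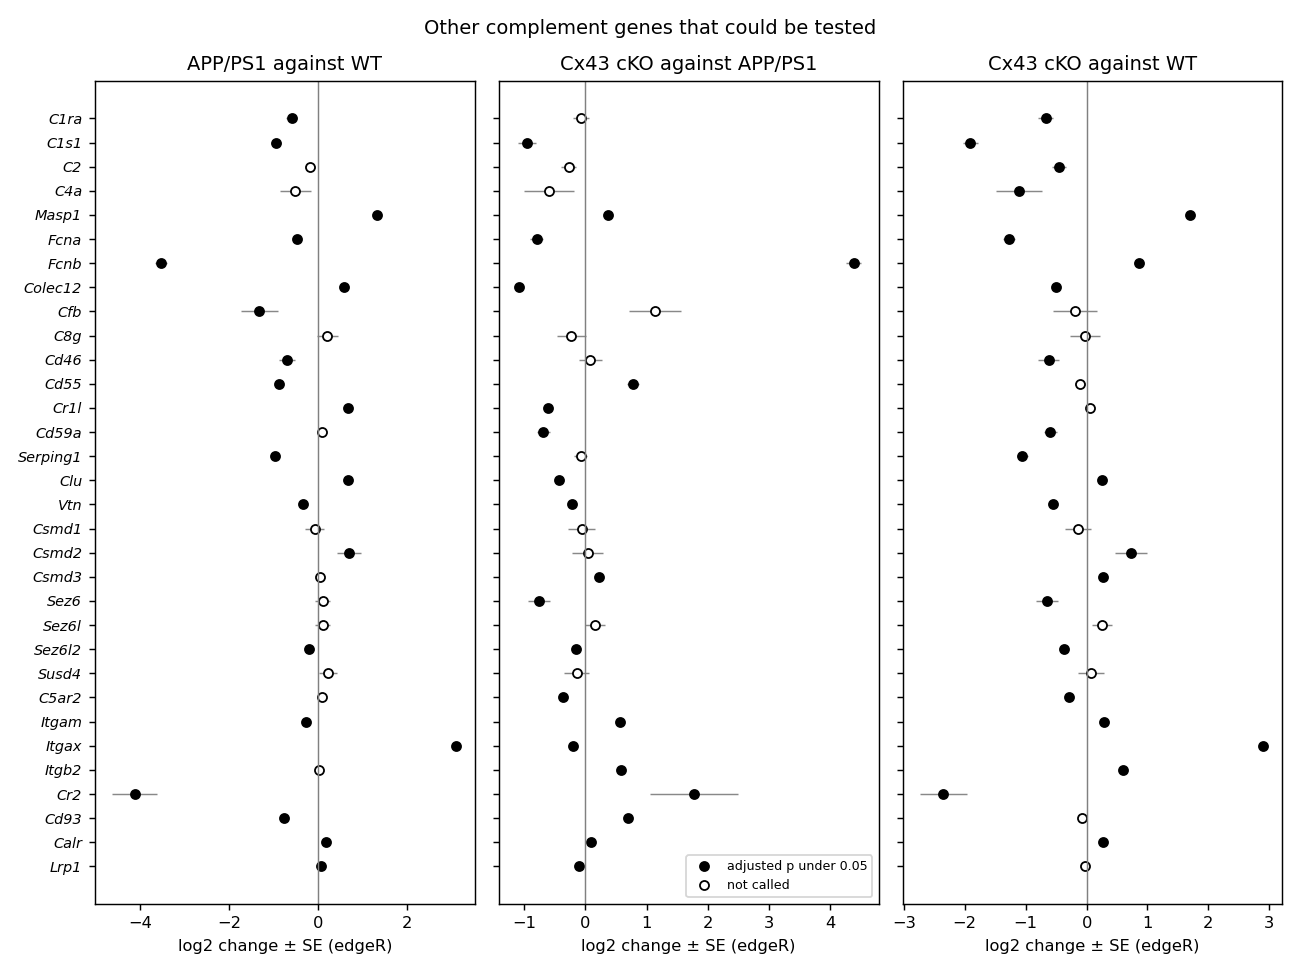
Log2 change and SE (edgeR, TMM scaling) of other complement genes that could be tested, in the 3 contrasts, with filled points for an adjusted p under 0.05. Itgax lies far above 0 in APP/PS1 against WT (3.09), and Fcnb far below it (-3.53). The bars of Cr2 are wide since it had few counts.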

How the data were processed

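Poly-A RNA of CD45-panned cells was sequenced as single-end reads on DNBSEQ, per the labels' protocols. The submitters' processing notes name HISAT, Bowtie2, DESeq2 and the build GRCm38.p6. The counting program is not given in the sources used here. The authors deposited 1 table with an estimated count, an FPKM and a TPM for each gene and library. The authors also deposited signal columns, their normalised counts (the estimated counts times 1 factor per library, and group means), which were not used here.

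Estimated counts were rounded to whole numbers and tested with edgeR 4.0.16 (TMM, filterByExpr, robust quasi-likelihood, all 9 libraries) in R 4.3.3, with Benjamini-Hochberg adjustment over 14696 genes and a threshold of 0.05. The biological coefficient of variation was 3.14%. Changes on TPM and FPKM are on the log2(value + pseudocount) scale, with limma 3.58.1. Summed values and shares were compared with exact two-sided permutation tests (SciPy 1.17.1), whose smallest p for 3 against 3 is 0.1. The test was checked on simulated data.

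The named genes are all members, every other complement gene of at least 10 CPM, the 3 largest called changes among the rest of each list, and the 3 genes of most similar pattern, of which 2 genes in all are not reported here. Members and lists were chosen with earlier results of these data known. Alternatives were DESeq2 1.42.0, limma-voom, other size factors, filters, units, length offsets in 10 bins, the 2 groups alone, a threshold of 0.01, the replicate number as a block, and leaving out each library. The alternatives for the other complement genes were chosen after seeing the data.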

Additional observations from a re-analysis of the deposited data

How the results depend on the processing

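C3, C4b and Cfp kept direction and call between APP/PS1 and WT and between Cx43 knockout and APP/PS1 under every alternative run. Of the log2 changes of the 9 genes under all alternatives, 571 kept their direction and call, 35 lost the call, 2 gained one and 39 changed sign, and the cause of the sign changes was not tested. Between APP/PS1 and WT, C1qb was -0.0262 and C1qc -0.0616 on TPM with either pseudocount. With the length offsets, with or without the replicate block, C1qa was -0.27, C1qb -0.31 and C1qc -0.35. Between Cx43 knockout and APP/PS1, C3ar1 was 0.0062 with library totals, 0.0060 and 0.0061 on FPKM, and 0.17 on TPM. C1qc was 0.11 on TPM, and with the length offsets, with or without the block, C1qa was 0.26, C1qb 0.21 and C1qc 0.43. Against WT, the knockout's C1qb was -0.0486 with library totals and on FPKM, -0.14 on TPM and -0.10 with length offsets. Cfp was -0.0183 with library totals, -0.0189 and -0.0203 on FPKM and -0.11 on TPM. C1qa was -0.0436 on TPM and -0.0061 with length offsets (-0.0060 with the block).

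Summed C1q was -1.36% between APP/PS1 and WT and -3.52% between Cx43 knockout and WT on TPM. Relative to microglial markers on TPM or FPKM it was -11.9% between APP/PS1 and WT and 0.812% between Cx43 knockout and APP/PS1. Leaving out 1 library gave -0.293% to 2.66% for the relative level between APP/PS1 and WT, -0.0582% to 1.59%, as a change relative to the WT share, for the share of C1qa between Cx43 knockout and WT, and -1.23% to 0.227%, likewise, for that of C1qb between APP/PS1 and WT. The small C1qb difference between Cx43 knockout and WT was lost without most single libraries (adjusted p = 0.0628 to 0.160, edgeR), and that of C1qc between Cx43 knockout and APP/PS1 with library totals (0.0574). Members called ranged from 7 to 9, 6 to 8 and 6 to 8 in the 3 contrasts.

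Deviations from the group means correlated across genes with a mean r of 0.187 in same-numbered libraries (0.0840 to 0.277, 7 of 9 pairs over 0.1) and -0.0928 in others, and own number was best in 17 of 18 comparisons. This is a hint from the data of a factor shared by number. The labels name none and not every pair passed 0.1, so the numbers were not taken to pair the libraries. The block lowered the coefficient of variation from 3.14% to 0.988%. With the replicate number as a block, 9319, 8851 and 7934 genes were called, against 8670.0, 8085 and 7010.0 without it, and 9, 7 and 8 members in both. Pairing cannot change the summed C1q differences between group means (29.5%, -14.6% and 10.5%). The exact paired permutation gave p = 0.25 for each, the smallest it can give, so it says nothing on how firm they are. With 3 libraries a group, the depth limits Vsig4, at 6.36 to 22 counts.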
